A study of Mus musculus with 4 samples.

Results

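The tail bud is the growing posterior end of the embryo, from which spinal cord and somites of the posterior body are laid down. The 10 genes described here mark the tail bud, its neuromesodermal progenitors and the young mesoderm that leaves it: T, Nkx1-2, Sp5, Wnt3a, Cdx1, Cdx2, Cdx4, Tbx6, Msgn1 and Hes7. They were chosen by name and found by matching the Ensembl identifiers of the expression table to mouse symbols. All 10 were among the 28765 genes of the table. RNA-seq was measured in CD-1 mouse embryos at embryonic day 9.5 (E9.5), in 4 libraries with 1 library per group: NTD spine, control spine, NTD brain and control brain. The NTD (neural tube defect) embryos came from parents fed a low-folate diet for over 8 weeks, and their mothers were injected with methotrexate (MTX), an inhibitor of dihydrofolate reductase, at 1.5 mg/kg on E7.5. All groups share the strain and the stage. The labels repeat 1 protocol text for all samples, and do not state if control dams were fed that diet or injected. The sources used here also leave out the number of embryos behind a library, the neural tube level of the defect and the place where brain and spine were cut.

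With 1 library per group, no difference reported here has a replicate check and no p-value is given. A level is in FPKM, reads scaled to exon length and to library size. A fold is the ratio of reads per library total, and its 95% interval is exact and covers counting error only. The log2 ratio of (FPKM + 1) is a second measure, used to count genes past a fold among the 12940 genes that averaged 1 FPKM or more across all 4 libraries. It understates the difference of low genes. Counts of genes past a fold or above or below 0, and list medians, are on this log2 scale unless they are said to be by reads. On it 58.0% of all genes compared lay below 0 in NTD against control spine and 56.4% in NTD against control brain. Of the 10 genes, 9 passed that filter, most of them through the spine libraries in which they are high. Hes7 averaged 0.942 FPKM and did not pass. Library totals lay between 16272101 and 16911677 reads. Otx2 is a gene of the anterior neural plate. It stood at 0.457 FPKM in NTD spine, 2.21 in control spine, 28.7 in NTD brain and 27.1 in control brain. This anterior gene was thus higher in both brain libraries. Hoxc10 belongs to a Hox group that patterns the lumbar region and tail. It stood at 15.3 FPKM in NTD spine, 12.3 in control spine, 0.668 in NTD brain and 0 in control brain. This posterior gene was thus higher in both spine libraries.

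Neuromesodermal progenitors are cells of the tail bud that can enter either the spinal cord or the paraxial mesoderm. They are known for carrying T together with the neural factor Sox2, and they are kept by Wnt and FGF signals. T, the brachyury transcription factor, and Wnt3a, a secreted Wnt ligand, sustain each other in mouse, and the caudal-type homeobox factors Cdx1, Cdx2 and Cdx4 act with them to extend the axis and to switch on posterior Hox genes. Nkx1-2 is a homeobox gene of the progenitors, and Sp5 is a zinc finger factor induced by Wnt signalling. Cells that turn to mesoderm switch on Tbx6, a T-box factor, and Msgn1, a basic helix-loop-helix factor of presomitic mesoderm. Hes7 is the oscillating repressor of the segmentation clock, by which presomitic mesoderm is cut into somites.

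Wnt signalling acts through TCF and LEF factors, so the start regions of the 5 genes with counting intervals above 1 in NTD against control spine are shown with the letters CTTTGA, the core of the site that these factors bind, in capitals on either strand. Sp5 is added as a Wnt-induced gene that differed little. Each sequence runs 5′ to 3′ on the strand of the gene, from 250 bases before to 50 after the RefSeq start, in build GRCm38.p6.
Msgn1 (chr12:11208899-11209198, minus strand): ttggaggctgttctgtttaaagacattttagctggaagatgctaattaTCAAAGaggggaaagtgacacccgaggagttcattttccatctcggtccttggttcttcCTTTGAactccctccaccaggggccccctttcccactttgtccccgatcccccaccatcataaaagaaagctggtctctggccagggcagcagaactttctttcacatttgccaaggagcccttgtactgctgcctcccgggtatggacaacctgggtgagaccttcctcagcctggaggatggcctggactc
T (chr17:8434173-8434472, plus strand): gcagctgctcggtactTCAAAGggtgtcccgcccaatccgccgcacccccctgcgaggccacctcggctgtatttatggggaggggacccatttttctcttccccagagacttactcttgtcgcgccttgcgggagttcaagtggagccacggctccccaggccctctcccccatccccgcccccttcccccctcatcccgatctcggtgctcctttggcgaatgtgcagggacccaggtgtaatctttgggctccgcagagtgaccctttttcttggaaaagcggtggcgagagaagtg
Sp5 (chr2:70474673-70474972, plus strand): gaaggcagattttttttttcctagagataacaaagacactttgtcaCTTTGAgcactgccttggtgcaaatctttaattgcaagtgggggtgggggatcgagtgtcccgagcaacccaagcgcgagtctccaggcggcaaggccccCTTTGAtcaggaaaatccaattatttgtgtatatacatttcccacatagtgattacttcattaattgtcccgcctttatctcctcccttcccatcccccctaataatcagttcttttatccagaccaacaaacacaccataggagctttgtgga
Cdx4 (chrX:103321148-103321447, plus strand): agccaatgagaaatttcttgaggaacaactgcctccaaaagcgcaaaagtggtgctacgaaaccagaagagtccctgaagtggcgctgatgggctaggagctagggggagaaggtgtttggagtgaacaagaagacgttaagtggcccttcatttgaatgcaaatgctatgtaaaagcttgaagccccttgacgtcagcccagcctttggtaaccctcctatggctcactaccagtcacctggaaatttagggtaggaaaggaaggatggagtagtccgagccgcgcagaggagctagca
Cdx2 (chr5:147307200-147307499, minus strand): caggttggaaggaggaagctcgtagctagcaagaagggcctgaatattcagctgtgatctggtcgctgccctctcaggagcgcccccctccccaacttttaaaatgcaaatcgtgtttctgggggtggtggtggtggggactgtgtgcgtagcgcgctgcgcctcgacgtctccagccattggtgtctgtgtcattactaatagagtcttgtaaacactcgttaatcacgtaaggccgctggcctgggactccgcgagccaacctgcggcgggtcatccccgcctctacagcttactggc
Tbx6 (chr7:126781233-126781532, plus strand): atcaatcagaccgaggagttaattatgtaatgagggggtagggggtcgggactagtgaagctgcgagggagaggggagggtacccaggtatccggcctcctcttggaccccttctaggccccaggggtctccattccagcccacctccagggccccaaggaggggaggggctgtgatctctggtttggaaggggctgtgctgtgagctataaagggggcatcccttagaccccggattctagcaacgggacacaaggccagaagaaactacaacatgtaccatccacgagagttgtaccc

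Of the 10 genes, 9 had such a sequence in the RefSeq table. The core was found in 3 of these 9, Sp5 and Msgn1 with a pair of matches each and T with a single match, and 16.0% of the 32851 promoters of the same length held it. In Sp5 both matches lie on the strand of the gene and begin at positions -204 and -104 from the start. Msgn1 has a match on the other strand at position -202 and a match on its own strand at -143. The match of T lies on the other strand at position -234. TTTATG, the core bound by caudal-type factors, was found in T, Msgn1 and Hes7, against 11.9% of all promoters. CACNAG, a site of Hes-type repressors, was found in 4 of the 9 (Nkx1-2, Tbx6, Msgn1 and Hes7) and in 42.5% of all promoters. GGTGTGA, a core bound by T-box factors, was found in none of the 9 and in 3.98% of all promoters. All motifs were sought on both strands, and matches of different motifs were allowed to overlap. Such matches are descriptions of letters in these windows.

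The spine libraries held all 10 genes, between 1.70 and 11.7 FPKM in NTD spine and between 2.004 and 7.91 FPKM in control spine. In NTD brain they ranged from 0.0336 to 5.46 FPKM, with 3 genes at 1 FPKM or more, and in control brain from 0 to 6.68 FPKM, with 2. Summed over the 10 genes the level was 63.1 FPKM in NTD spine, 40.8 in control spine, 13.6 in NTD brain and 14.2 in control brain. In both spine libraries T was highest and Hes7 lowest. Msgn1 stood in the fourth place in NTD spine and in the seventh place in control spine. T, Cdx4, Cdx2 and Msgn1 lay within 9.43 to 11.7 FPKM in NTD spine, and Cdx2 and Cdx4 within 5.20 to 5.25 FPKM in control spine. Neighbours this close cannot be ordered, since there is no spread over samples. In bulk tissue, fewer cells of a type and less RNA per cell cannot be told apart, here and in all values that follow.

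**Figure D1:**
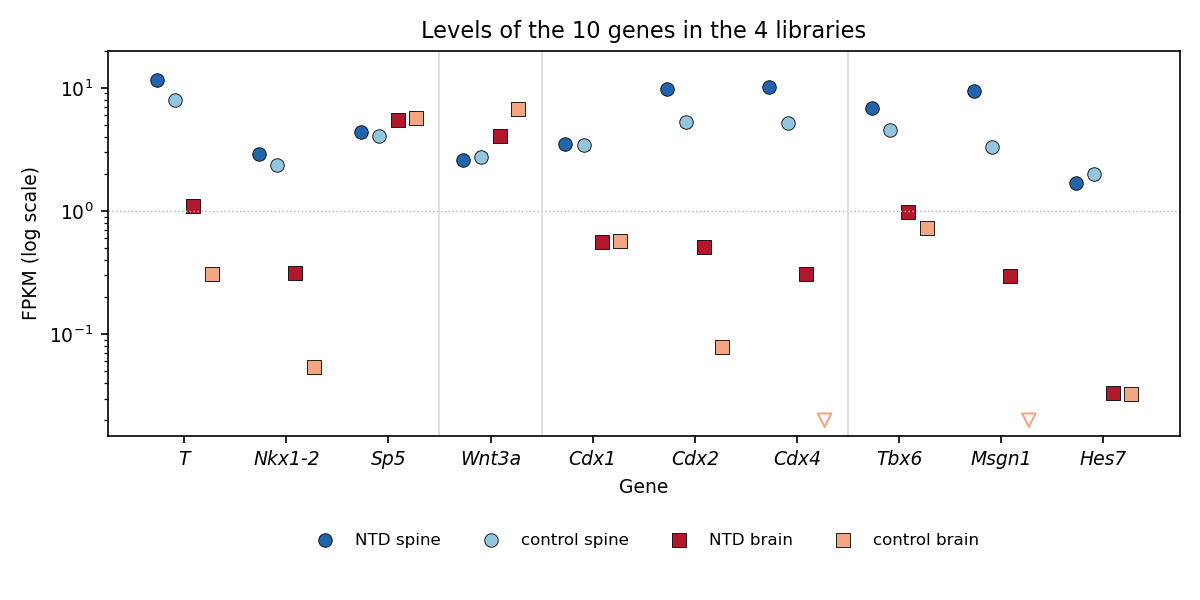
Levels of the 10 genes in FPKM (log axis) in NTD spine, control spine, NTD brain and control brain, 1 point per library, with genes grouped by role. Open triangles at the foot mark libraries with 0 reads (Cdx4 and Msgn1 in control brain), and the dotted line marks 1 FPKM. Only Sp5 and Wnt3a are higher in the brain libraries than in the spine libraries.

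Between NTD spine and control spine, the posterior progenitor factor T, the caudal-type genes Cdx2 and Cdx4 and the presomitic mesoderm genes Tbx6 and Msgn1 were higher in NTD spine, by 1.47-fold to 2.85-fold, and their counting intervals lay above 1. The other 5 genes, Nkx1-2, Sp5, Wnt3a, Cdx1 and Hes7, had intervals that include 1. On the log2 ratio of (FPKM + 1), 1 of the 9 genes compared, Msgn1, was at least 2-fold higher and none was at least 2-fold lower, against 0.649% and 0.68% of all genes compared. At 1.5-fold the count was 3 higher (Msgn1, Cdx4 and Cdx2) and 0 lower, against 1.45% and 2.93% of all genes on that scale. By reads 1 gene was at least 2-fold and 4 were at least 1.5-fold higher, Tbx6 being added, and 0 were lower, against 0.878% and 2.13% of all genes higher and 1.99% and 6.14% lower. Counting intervals alone set 17.2% of all genes apart as higher and 26.6% as lower, so an interval above 1 is common at this depth. The median log2 ratio of the 9 genes was 0.51, against -0.04 over all genes compared.

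The progenitor factors differed by unequal amounts in spine. T (ENSMUSG00000062327, chromosome 17, 8434423 to 8442496) stood at 11.7 FPKM (448 reads) in NTD spine and 7.91 FPKM (298 reads) in control spine, a fold of 1.47 (interval 1.27 to 1.71). Nkx1-2 (ENSMUSG00000048528, chromosome 7, 132594878 to 132599637) was at 2.90 FPKM (157 reads) in NTD spine and 2.35 FPKM (125 reads) in control spine, a fold of 1.23 (0.967 to 1.57). Sp5 (ENSMUSG00000075304, chromosome 2, 70474923 to 70477729) was at 4.36 FPKM (152 reads) in NTD spine and 4.04 FPKM (138 reads) in control spine, a fold of 1.08 (0.852 to 1.37). All 3 were above control in the NTD library, and the interval of T alone lay above 1. Wnt3a (ENSMUSG00000009900, chromosome 11, 59248033 to 59290752) was close to equal, at 2.62 FPKM (120 reads) in NTD spine and 2.74 FPKM (123 reads) in control spine, a fold of 0.956 (0.737 to 1.24).

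The caudal-type genes split. Cdx4 (ENSMUSG00000031326, chromosome X, 103321398 to 103330592) was at 10.2 FPKM (334 reads) in NTD spine and 5.20 FPKM (166 reads) in control spine, a fold of 1.97 (1.63 to 2.39). Cdx2 (ENSMUSG00000029646, chromosome 5, 147300805 to 147307270), which also serves the hindgut, was at 9.78 FPKM (367 reads) in NTD spine and 5.25 FPKM (193 reads) in control spine, a fold of 1.86 (1.56 to 2.23). Cdx1 (ENSMUSG00000024619) was at 3.51 FPKM (102 reads) in NTD spine and 3.44 FPKM (98 reads) in control spine, a fold of 1.02 (0.765 to 1.36). The interval of Cdx1 does not overlap those of its 2 relatives. These intervals compare 2 libraries and not 2 conditions.

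Among the genes of presomitic mesoderm, the early factors were higher in NTD spine and the clock gene was not. Msgn1 (ENSMUSG00000047002, chromosome 12, 11208360 to 11208972, a single exon) was at 9.43 FPKM (96 reads) in NTD spine and 3.31 FPKM (33 reads) in control spine, a fold of 2.85 (1.90 to 4.37), the highest of the 10 genes in this comparison. Tbx6 (ENSMUSG00000030699, chromosome 7, 126781483 to 126785560) was at 6.91 FPKM (207 reads) in NTD spine and 4.53 FPKM (133 reads) in control spine, a fold of 1.52 (1.22 to 1.91). Hes7 (ENSMUSG00000023781, chromosome 11, 69120404 to 69124055) was at 1.70 FPKM (51 reads) in NTD spine and 2.004 FPKM (59 reads) in control spine, a fold of 0.847 (0.571 to 1.25). Exons of Hes7 overlap those of 9130213A22Rik on the opposite strand over 234 bases. Whether the authors counted by strand is not stated, so reads of that stretch cannot be assigned, and 9130213A22Rik itself had 4 reads in NTD spine and 10 in control spine. Nkx1-2 likewise shares 541 bases with the antisense model Gm16764.

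**Figure D2:**
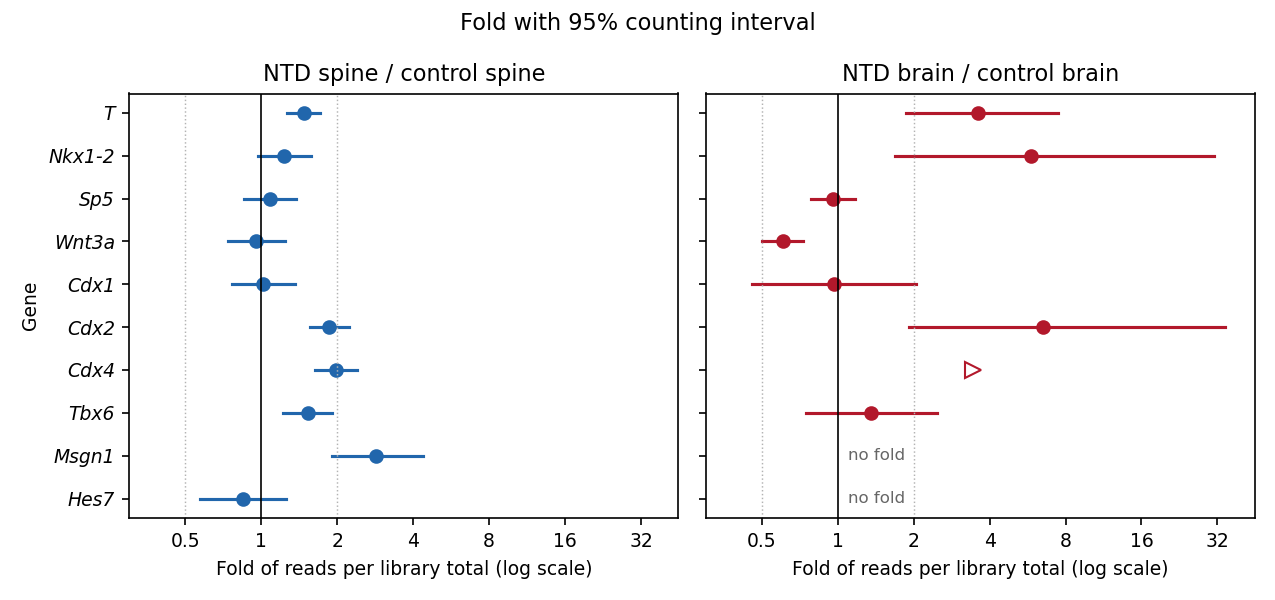
Fold of reads per library total for the 10 genes, NTD spine against control spine and NTD brain against control brain, on log axes with 95% counting intervals (lines). The open triangle for Cdx4 in brain is a lower bound of 3.42 against 0 control reads, and Msgn1 and Hes7 have no fold in brain because both libraries hold 3 reads or fewer. In spine 5 intervals lie above 1, those of T, Cdx2, Cdx4, Tbx6 and Msgn1.

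Other tissues differed between the spine libraries at the same time. Of 8 primitive erythroid genes all were lower in NTD spine, with a summed level of 3645 FPKM in NTD spine and 6987 FPKM in control spine; Hba-a1 alone was at least 2-fold lower. Heart genes were lower in 11 of 12 (summed 527 FPKM in NTD spine and 791 in control spine), and midbrain and hindbrain boundary genes in 7 of 8 (5.32 and 11.8 FPKM), with En2 and Otx2 at least 2-fold lower on the log2 scale and 4 of 8 by reads. By reads En2 had a fold of 0.0571 (0.0205 to 0.128), Pax5 of 0.0603 (0.0160 to 0.162), Cnpy1 of 0.147 (0.0793 to 0.254) and Otx2 of 0.206 (0.136 to 0.304). The gut endoderm and yolk sac list summed to 63.7 FPKM in NTD spine and 141 FPKM in control spine, with Apoa1, Apoa2, Afp and Ttr at least 2-fold lower. Beside Cdx2, the endoderm factor Foxa1 of that list was at 4.49 FPKM in NTD spine and 2.77 in control spine, a fold of 1.62 (1.32 to 1.998). The part of such tissue content in the values of the 10 genes was not tested.

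Neighbouring steps of axis elongation did not all go with T, Cdx2, Cdx4, Tbx6 and Msgn1 in spine. Of 14 posterior signal and progenitor genes, 12 were compared, and none was past 1.5-fold on the log2 scale (median log2 ratio 0.01) and 1, Evx1, by reads. Wnt8a and Fgf4 missed the filter, with folds of 1.27 (0.516 to 3.25) and 0.653 (0.232 to 1.74). The median brain level of the 14 genes was 85.1% of the spine level in NTD embryos and 97.1% in controls. For the 10 tail bud genes it was 10.2% and 3.09%, so most of that list is not confined to spine. In that list Evx1, a homeobox gene of the posterior streak and tail bud, had the largest log2 ratio, 0.45, with 151 reads in NTD spine and 96 in control spine, a fold of 1.54 (1.19 to 2.01), and Gdf11, a signal for the trunk-to-tail transition, was at -0.25. Cyp26a1, which clears retinoic acid from the tail bud, had a fold of 0.987 (0.835 to 1.17). Among 10 Wnt feedback and target genes 8 were compared, none past 1.5-fold, with a median of 0.09. Of these, 6 lay above 0 and 2 below. Axin2, a feedback inhibitor of Wnt signalling, was among those below, with a fold of 0.879 (0.815 to 0.949). Lef1, one of the LEF factors, was among those above, with a fold of 1.145 (1.043 to 1.258).

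The segmentation clock and presomitic list, without the 3 genes above, had 12 of 16 genes compared, 5 above 0 and 7 below, none past 1.5-fold on the log2 scale and 1 by reads, with a median of -0.07. That gene was Nrarp, a Notch feedback gene: 66 reads in NTD spine and 107 in control spine, a fold of 0.604 (0.438 to 0.829). Lfng, which modifies Notch, had a fold of 0.756 (0.673 to 0.848). Dusp6, a feedback phosphatase of FGF signalling, had a fold of 1.25 (1.17 to 1.33). The Notch ligand Dll1 was nearly level, at 1216 reads in NTD spine and 1198 in control spine. Somite genes lay above 0 in 11 of 14, none past 1.5-fold, with a median of 0.11, and Aldh1a2, a retinoic acid synthesis enzyme, led them with a fold of 1.38 (1.28 to 1.48).

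Terminal Hox genes, of paralogue groups that pattern the lumbar region and tail, gave a mixed picture in spine. Of 12 in the list 7 were compared, 3 above 0 and 4 below, none past 1.5-fold, with a median of -0.07. Hoxc10 had 485 reads in NTD spine and 383 in control spine, a fold of 1.24 (1.08 to 1.42), and Hoxd10 had 186 reads in NTD spine and 272 in control spine, a fold of 0.670 (0.553 to 0.811). Hoxd13, of the most posterior group, had 155 reads in NTD spine and 169 in control spine. Hoxd12, below the filter and named after its values were seen, had 21 reads in NTD spine and 80 in control spine, a fold of 0.257 (0.151 to 0.420). Neural progenitor genes were below 0 in all 8, with a median of -0.18. Sox2, the neural factor that the progenitors share, had a fold of 0.820 (0.761 to 0.884), and Hes5, a Notch target, was the only gene of that list at least 2-fold lower, with a fold of 0.363 (0.250 to 0.520).

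**Figure D3:**
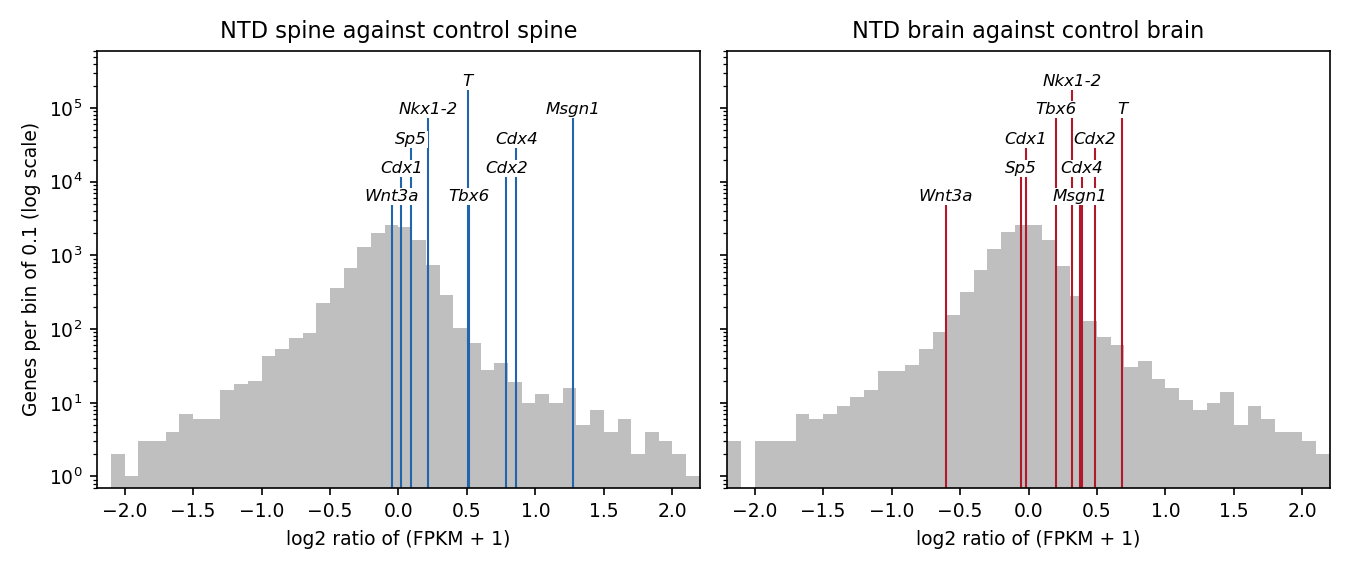
Number of genes (log axis, bins of 0.1) by log2 ratio of (FPKM + 1) among the 12940 genes compared, within the plotted range of -2.2 to 2.2, for NTD spine against control spine and NTD brain against control brain. Coloured lines mark the 9 genes that passed the filter. In spine Msgn1 stands farthest out at 1.28, and in brain T is highest at 0.69 and Wnt3a lowest at -0.61.

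Between NTD brain and control brain, most of the 10 genes were near the limit of detection, and Sp5 and Wnt3a were the exceptions. NTD brain held 3 reads or fewer of 2 genes (Msgn1 and Hes7), and control brain of 5 (Cdx2, Cdx4, Nkx1-2, Msgn1 and Hes7). T, Cdx2, Cdx4 and Nkx1-2 were higher in NTD brain, on 10 to 42 reads there, while Wnt3a was lower on 184 reads. On the log2 ratio of (FPKM + 1), 0 of the 9 genes compared were 2-fold higher or lower, against 0.804% and 0.781% of all genes. This count rests on the pseudocount of 1 FPKM: with 0.1 it was 5 higher, with a median of 1.43, and by reads 4 of the 8 genes with a fold (T, Nkx1-2, Cdx2 and Cdx4) were at least 2-fold higher and 0 lower, against 1.86% and 1.6% of all genes. At 1.5-fold T was higher and Wnt3a lower, against 2.02% and 2.56% of all genes; by reads the same 4 were higher and Wnt3a lower, against 3.5% and 4.66%. By counting intervals 4 of the 9 were higher and 1 was lower, where 16.1% and 25.7% of all genes were. The median log2 ratio of the 9 was 0.32, against -0.03 over all genes.

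T stood at 1.102 FPKM (42 reads) in NTD brain and 0.306 FPKM (12 reads) in control brain, a fold of 3.59 (1.86 to 7.499). Nkx1-2 counted 17 reads in NTD brain, against 3 in control brain, a fold of 5.82 (1.68 to 31.0). Cdx2 counted 19 reads in NTD brain, against 3 in control brain, a fold of 6.503 (1.91 to 34.3). The wide intervals of both come from the 3 control reads. Cdx4 was seen in 10 reads of NTD brain and 0 of control brain, a difference of at least 3.42-fold when that control library is set to a floor of 3 reads. Msgn1 counted 3 reads in NTD brain, against 0 in control brain, and Hes7 had 1 read in each, so neither has a fold.

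The remaining genes of the mesodermal and caudal groups had wide intervals that include 1 in brain. Tbx6 was at 0.976 FPKM (29 reads) in NTD brain and 0.721 FPKM (22 reads) in control brain, a fold of 1.35 (0.751 to 2.47). Cdx1 was at 0.555 FPKM (16 reads) in NTD brain and 0.574 FPKM (17 reads) in control brain, a fold of 0.966 (0.457 to 2.03). Both intervals also include 1.5, so these counts do not settle a difference of that size.

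Sp5 and Wnt3a, which the embryo also uses in the dorsal and anterior neural tube, were the most abundant of the 10 in both brain libraries. Sp5 was at 5.46 FPKM (189 reads) in NTD brain and 5.72 FPKM (203 reads) in control brain, a fold of 0.956 (0.780 to 1.17). Wnt3a was at 4.05 FPKM (184 reads) in NTD brain and 6.68 FPKM (312 reads) in control brain, a fold of 0.606 (0.502 to 0.729). Roof plate and dorsal neural tube genes, where Wnt3a is also made, were below 0 in all 8 members in NTD brain, with a median of -0.35, and 2 were at least 1.5-fold lower on the log2 scale, 3 by reads. In that list Wnt8b had a fold of 0.606 (0.510 to 0.717), Msx1 of 0.628 (0.569 to 0.691) and Gdf7 of 0.562 (0.361 to 0.861). In spine the same list was below 0 in 7 of 8, with a median of -0.32, while Wnt3a had a fold of 0.956. With each library rescaled by its median ratio, the log2 ratio of Wnt3a in brain was -0.57, just inside 1.5-fold, and with an adjustment for GC content and length it was -0.48.

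The posterior genes that were higher in NTD brain stood beside other trunk genes. Of 14 somite genes 11 were above 0 and 2, Meox1 and Aldh1a2, were at least 2-fold higher on the log2 scale in NTD brain, while by reads Myog, Tcf15 and Myf5 made it 5, with a summed level of 47.7 FPKM in NTD brain and 34.1 in control brain. Meox1 counted 408 reads in NTD brain, against 129 in control brain, and Aldh1a2 counted 162 reads in NTD brain, against 20 in control brain. Among terminal Hox genes, Hoxc10 counted 21 reads in NTD brain, against 0 in control brain, and 6 of the 12 were at 0 reads in NTD brain, 10 in control brain. The heart list, 12 genes, lay above 0 throughout, with 9 genes past 2-fold (12 by reads) and a sum of 222 FPKM in NTD brain against 53.0 FPKM in control brain. Noto, a notochord gene, was at 0 reads in both brain libraries. Shh and Foxa2, of notochord and floor plate, had folds of 0.677 (0.596 to 0.769) and 0.654 (0.521 to 0.819). Nog, of the same list, was lowest with a fold of 0.532 (0.393 to 0.716). The part of trunk tissue in the brain values of T, Cdx2, Cdx4 and Nkx1-2 was not tested.

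The lists of posterior signals, Wnt feedback and the segmentation clock held no gene past 1.5-fold in brain on the log2 scale. By reads Evx1 alone was past it, with 13 in NTD brain and 2 in control brain, a fold of 6.67 (1.51 to 60.9). Posterior signals had a median log2 ratio of -0.07, and Gdf11 (-0.49) and Fgf17 (-0.42) were the lowest of the 12 compared. Wnt feedback genes had a median of -0.03, with Nkd1 lowest at -0.44 and Axin2 at -0.36. The segmentation clock list lay below 0 in 10 of 12, with a median of -0.31, led by Pcdh8 (-0.50), Snai1 (-0.50), a factor of mesoderm migration, and Lfng (-0.41). Neural progenitor genes were below 0 in all 8, with a median of -0.22, and Hes5 alone was past 1.5-fold.

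Set against the spine library of the same condition, T in brain came to 9.45% of its spine level in NTD embryos and 3.88% in controls. The share was 10.9% in NTD and 2.31% in control for Nkx1-2, and 5.22% in NTD and 1.50% in control for Cdx2. For Cdx4 it was 3.02% in NTD, with 0 reads in control brain. The shares of Msgn1 (3.15% in NTD and 0 in control) and Hes7 (1.98% and 1.63%) rest on 3 brain reads or fewer. Cdx1 (15.8% in NTD and 16.7% in control) and Tbx6 (14.1% and 15.9%) had like shares in both conditions. Of the 14 somite genes 10 had a higher share in NTD embryos and 4 a lower one, with medians of 17.1% in NTD and 13.6% in control. Those with a higher share included Aldh1a2 (9.28% in NTD and 1.54% in control), Meox1 (14.4% and 5.38%), Myf5 (27.5% and 12.9%) and Myog (16.0% and 2.70%). Foxc1 (73.7% and 100.3%) and Pax3 (70.3% and 84.3%) went the other way, and the gap of Foxc1 was the widest in percent. Of the 10 terminal Hox genes with over 3 reads in both spine libraries, 6 had a higher share in NTD embryos, and 4 were at 0 in both brain libraries. Each share carries the counting error of its brain reads.

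**Figure D4:**
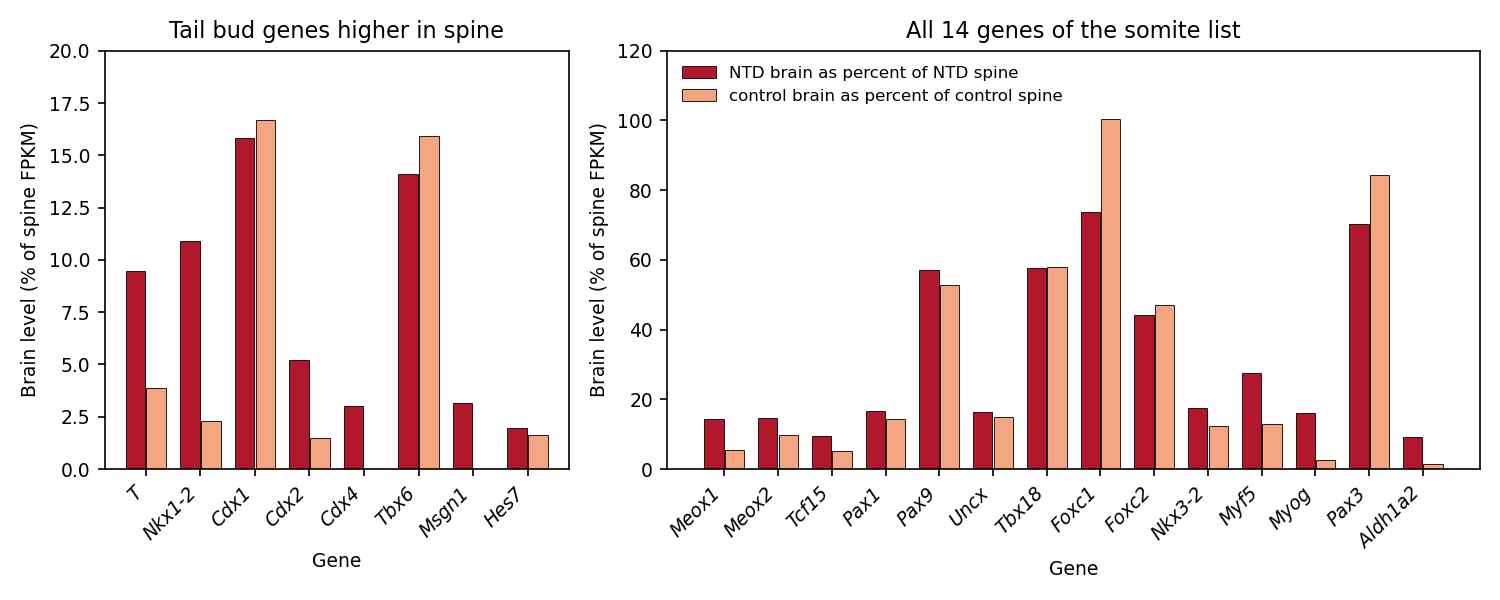
Brain level as a percent of the spine level in FPKM, in NTD embryos (dark bars) and control embryos (light bars), for the 8 tail bud genes higher in spine (left) and all 14 genes of the somite list (right, on its own axis). Of the 8 tail bud genes 6 have a higher share in NTD embryos: T, Nkx1-2, Cdx2, Cdx4, Msgn1 and Hes7. Those of Msgn1 and Hes7 rest on 3 brain reads or fewer. Cdx1 and Tbx6 do not have a higher share. Of the somite genes 10 have a higher share in NTD embryos and 4 a lower one. Cdx4 and Msgn1 had 0 reads in control brain.

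The tissue difference itself was steep for 8 of the 10 genes, all higher in spine. These comparisons share libraries with those above. In NTD embryos 7 of the 9 genes compared were at least 2-fold higher in spine and 0 lower, at 1.5-fold as well, against 2.13% and 1.02% of all genes at 2-fold and 4.88% and 3.41% at 1.5-fold. In control embryos 7 of 9 were at least 2-fold higher in spine and 1, Wnt3a, at least 2-fold lower, against 2.38% and 0.981% of all genes; the counts were the same at 1.5-fold, against 5.27% and 2.91%. A gene low in brain could pass the filter only through spine and so had to differ, and these counts support nothing on their own. Cdx2 was 19.2-fold (12.1 to 32.2) higher in NTD spine than in NTD brain and 66.9-fold (22.5 to 327) higher in control spine than in control brain. T was 10.6-fold (7.70 to 14.9) higher in NTD spine than in NTD brain and 25.8-fold (14.6 to 50.5) higher in control spine than in control brain. Cdx4 was 33.1-fold (17.8 to 69.7) higher in NTD spine than in NTD brain, and at least 57.5-fold higher in control spine against the floor of 3 reads in control brain. Msgn1 was 31.7-fold (10.5 to 157) higher in NTD spine, and at least 11.4-fold higher in control spine against the same floor. Cdx1 and Tbx6 had the smallest folds of the 8, at 6.32 (3.71 to 11.5) and 7.08 (4.79 to 10.8) in NTD embryos and 5.99 (3.56 to 10.7) and 6.28 (3.98 to 10.4) in control embryos.

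The genes with the flattest tissue profile were Sp5 and Wnt3a. Sp5 had a fold of 0.798 (0.640 to 0.993) in NTD spine against NTD brain and 0.706 (0.565 to 0.881) in control spine against control brain. Wnt3a had a fold of 0.647 (0.510 to 0.819) in NTD spine against NTD brain and 0.410 (0.330 to 0.506) in control spine against control brain. Measured as the distance between centred log2 (FPKM + 1) profiles over the 4 libraries, Nkx1-2 (0.20) and Tbx6 (0.22) lay closest to the mean of the 9 genes, and Sp5 (1.998) and Wnt3a (2.48) farthest.

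The log2 ratio of NTD to control was higher in spine than in brain by 0.90 for Msgn1, 0.56 for Wnt3a, 0.47 for Cdx4, 0.32 for Tbx6 and 0.30 for Cdx2. The same difference, spine minus brain, was -0.18 for T and -0.10 for Nkx1-2. The differences for Cdx1 (0.04) and Sp5 (0.14) were small. None of these differences between tissues was tested, and those of genes with few brain reads move with the pseudocount.

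Outside the 10 genes, the protein-coding genes whose profile over the 4 libraries was closest to their mean were Evx1 (distance 0.07), Igf2 (0.07), Naaa (0.16), Pax1 (0.24), Hoxd11 (0.24), Tshz1 (0.26), Dact2 (0.29) and Nkx3-2 (0.30), out of 10949 genes. Evx1 was at 3.16 FPKM in NTD spine, 2.05 in control spine, 0.274 in NTD brain and 0.0411 in control brain. Igf2, an imprinted growth factor gene, was at 11.9 FPKM in NTD spine, 8.54 in control spine, 2.95 in NTD brain and 2.55 in control brain. With 4 libraries many genes can share such a profile.

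**Figure D5:**
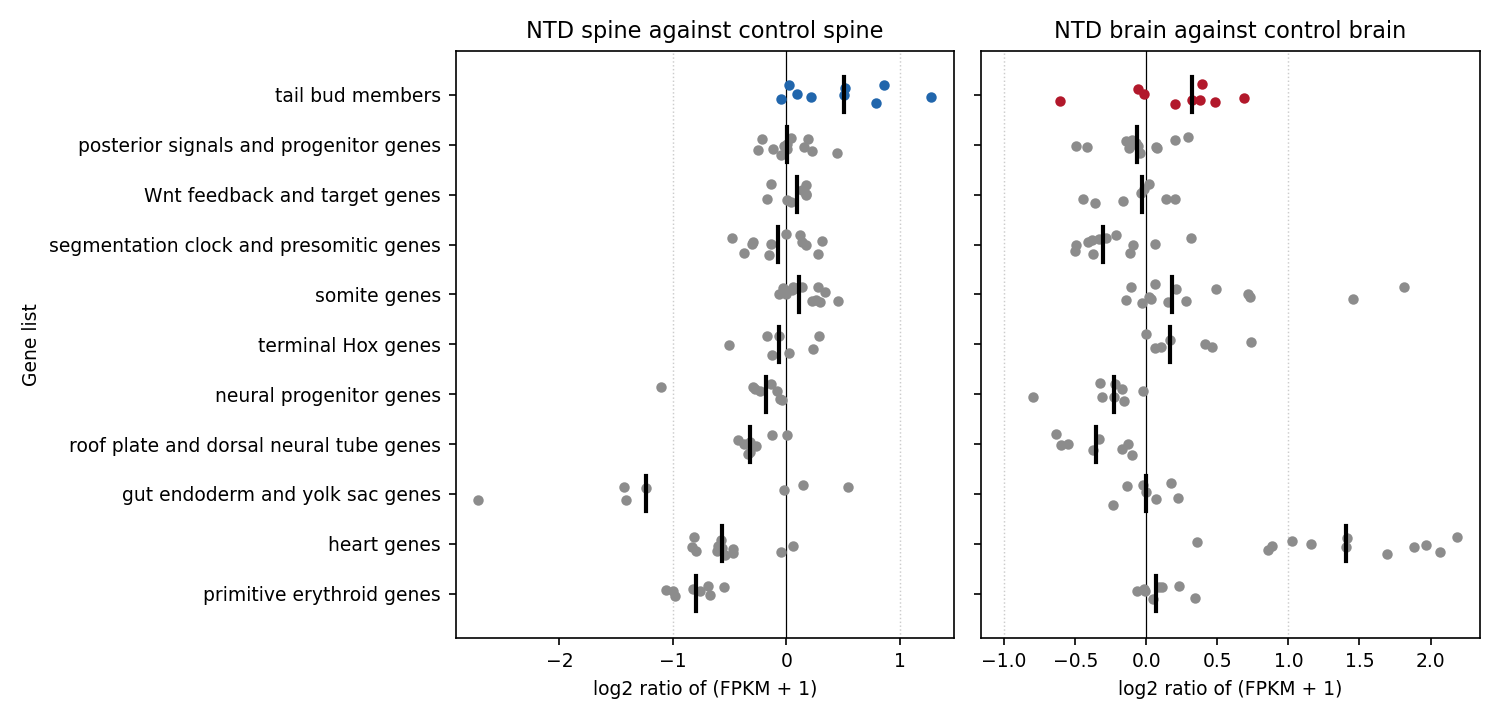
Log2 ratios of (FPKM + 1) of single genes (points) with the list median (black bar) for the tail bud genes (coloured) and 10 other lists (grey), NTD spine against control spine and NTD brain against control brain, among the genes compared. Genes below the filter, such as Mesp1, Mesp2, Ripply2 and Cer1 of the clock list, are not plotted. Dotted lines mark 2-fold. In spine the tail bud median is 0.51 and those of the clock and terminal Hox lists are both -0.07; in brain the heart list has a median of 1.41.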

How the data were processed

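The members and the gene lists were chosen with earlier results of these data known. The authors deposited 1 table of FPKM with 4 columns, which match the sample titles. The submitters' processing notes name HISAT2 2.0.1 and mm10. The counting program, annotation, strand setting and filters: not given in the sources used here. Identifiers were matched to GENCODE M21 (GRCm38, which is mm10): 28698 matched and 67 did not. The deposited FPKM times union exon length came in whole steps of 1 read, which gives reads and library totals; 28298 genes (98.6%) were whole within 0.01 reads in all 4 libraries, the 10 members among them. Totals were 16605133 reads in NTD spine, 16272101 in control spine, 16470311 in NTD brain and 16911677 in control brain.

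Folds are ratios of reads per total with exact conditional (Clopper-Pearson) 95% intervals; reads are not independent molecules, so intervals cover counting error only. No fold is given where both libraries hold 3 reads or fewer. Log2 ratios used a pseudocount of 1 FPKM; counts by reads, added after seeing the data, used none. Steps were tested on simulated reads. Named genes are the 10 members, up to 4 genes with the largest log2 ratio of each list, genes that bring a list's count past 2-fold to 5 or fewer, the 8 genes closest in profile and genes overlapping a member. Other genes fall outside this rule and were chosen after their values were seen. These are Cyp26a1, Dll1, Foxa1, Hoxd12, Hoxd13, Noto, Fgf4, Wnt8a, Mesp1, Mesp2, Ripply2 and Cer1, and Pax5, Myf5, Foxc1 and Pax3 where named. The labels give every sample the number 1, so it pairs nothing. Python 3.11.15, numpy 2.4.6, scipy 1.17.1 and pandas 2.3.3 were used.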

Additional observations from a re-analysis of the deposited data

How the results depend on the processing

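No paired analysis was possible because each group has 1 library. Of 180 values of single genes under 5 alternatives (pseudocounts, rescalings and the adjustment for GC content and length), 23 moved and 3 took the other sign, all under that adjustment and none past 1.5-fold: Cdx1 in NTD brain (0.11, against -0.02), Sp5 in NTD brain (0.09, against -0.06) and Wnt3a in NTD spine (0.09, against -0.05). With a pseudocount of 0.1, 5 of the 9 genes were at least 2-fold and 1.5-fold higher in NTD brain (median 1.43), Wnt3a made 1 gene 1.5-fold lower in NTD spine against NTD brain, and the median of control spine against control brain was 3.99. By reads, an alternative chosen after seeing the data, 4 were higher in NTD brain at either fold. With a pseudocount of 5, no gene was 1.5-fold higher (0) or lower (0) in NTD brain, 0 were 2-fold and 1 was 1.5-fold higher in NTD spine, and the 2-fold counts in spine against brain were 4 higher in NTD embryos, and 3 higher and 0 lower in controls. A filter of 5 FPKM left T alone: 0 genes lower in NTD brain, 0 past either fold in NTD spine, 1 higher and 0 lower in both tissue comparisons at either fold, and medians of 0.69 in NTD brain and 2.77 in control spine against control brain. Rescaling by the median ratio, or adjusting for GC content and length, left 0 genes 1.5-fold lower in NTD brain, and that adjustment gave 5 genes 1.5-fold higher in NTD spine, T and Tbx6 added. Genes richer in GC had lower log2 ratios of NTD to control, with a Spearman's rho over all genes of -0.36 in spine and -0.34 in brain. The counts move by construction of the pseudocount and filter at low FPKM. Depth limits the brain values, which for 8 of the genes rest on 42 reads or fewer.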
